A study of Mus musculus with 4 samples.

Results

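The genes described here encode the major histocompatibility complex (MHC) proteins of the mouse and the machinery that loads peptides onto them. They were chosen by name from the deposited FPKM table, as every gene whose symbol begins with H2- plus B2m, Cd74, Ciita, Nlrc5, Tap1, Tap2, Tapbp, Psmb8, Psmb9 and Psmb10, which gave 44 of 32151 genes (34 H2- genes and 10 others). Whole kidneys from ADPKD mice (2 libraries) were compared with whole kidneys from wild-type mice (2 libraries). The ADPKD mice had the genotype Pkd1fl/fl; Cre/Esr1+, that is a floxed Pkd1 gene and a Cre recombinase activated by tamoxifen, and serve as a model of autosomal dominant polycystic kidney disease. The labels repeat the same injection of tamoxifen (10 mg/kg at postnatal day 10) for the wild-type (WT) mice, so the drug is shared by both groups as labelled. The promoter that drives Cre, the cells in which Pkd1 is deleted, the strain, the MHC haplotype, the sex and the age at sampling are not given in the sources used here, and the labels do not say whether each library is a different animal. A p-value here therefore measures only the spread between these samples. The ADPKD libraries differ in sex-linked transcripts, so they are not of the same animal; whether the WT spread is technical is not known.

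MHC class I molecules sit on nearly all cells and display peptides made in the cytosol. The heavy chain (H2-K and H2-D in the mouse) pairs with beta-2 microglobulin (B2m) in the endoplasmic reticulum. The proteasome, or its variant the immunoproteasome, cuts the peptide. The transporter made of Tap1 and Tap2 carries the peptide into the endoplasmic reticulum, where tapasin (Tapbp) helps to load it. MHC class II molecules are made mainly by dendritic cells, macrophages and B cells and display peptides from endosomes: the invariant chain (Cd74) guards the empty groove, and H2-DM exchanges its last fragment for a peptide. Ciita is the master coactivator of the class II genes and Nlrc5 that of the class I genes, and interferon gamma is the classical inducer of both.

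Each library held between 18001308 and 19955120 reads assigned to genes. The correlation of log2 values over genes (a description, since genes share a library) was 0.944 for the pair of ADPKD libraries and 0.96 for the WT pair, and replicates differed by more than counting noise (chi-square per gene of 59.7 in ADPKD and 52.8 in WT). ADPKD replicate 2 was the only library with the female RNA Xist (29.6 FPKM, against 0.0121 to 0.0217 FPKM elsewhere) and the only library nearly without the Y-linked Ddx3y (0.0482 FPKM, against 8.46 to 15.1 FPKM), so sex and this library cannot be told apart in the values below. The tissue label was borne out by its markers: of 10 kidney epithelial genes 0 were at 0 in any library, and their summed level was 939 to 1260 FPKM in ADPKD and 2593 to 2746 FPKM in WT.

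Of the 44 genes, 32 had a mean of at least 0.5 FPKM over the 4 libraries and were tested. Of these 6 rose in ADPKD kidney and 0 fell (limma on log2(FPKM + 1), Benjamini-Hochberg adjusted p below 0.05 over 17001 genes). The 6 were 4 class II genes (H2-Ab1, H2-DMa, H2-DMb1 and H2-DMb2), the tapasin gene Tapbp and the immunoproteasome gene Psmb10. They are 18.8% of the genes tested here, beside 9.43% of all tested genes that rose and 4.78% that fell. At an unadjusted p under 0.05, 12 of the 32 were higher and 0 lower by limma, beside 5878 of the 17001 genes in either direction. Voom on recovered reads called 3 of the 32 higher and 0 lower, beside 1101 higher and 1243 lower of all genes. In whole kidney, more cells of a type and more RNA per cell cannot be told apart. The median log2 fold change was 0.71 over the 32 genes and 0.18 over all genes. This shift of all genes depends on the scaling: with quantile normalization it was -0.0125 and 4 of the genes rose (999 of all genes rose and 1102 fell, against 1604 and 813 as deposited), and with median-of-ratios scaling it was -0.000134 and 2 rose (817 and 985). Both ADPKD libraries stood above both WT libraries for 17 of the 32 genes and for 43.6% of all genes, and below them for 1 of the 32, H2-T24, and for 21.0% of all genes.

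**Figure D1:**
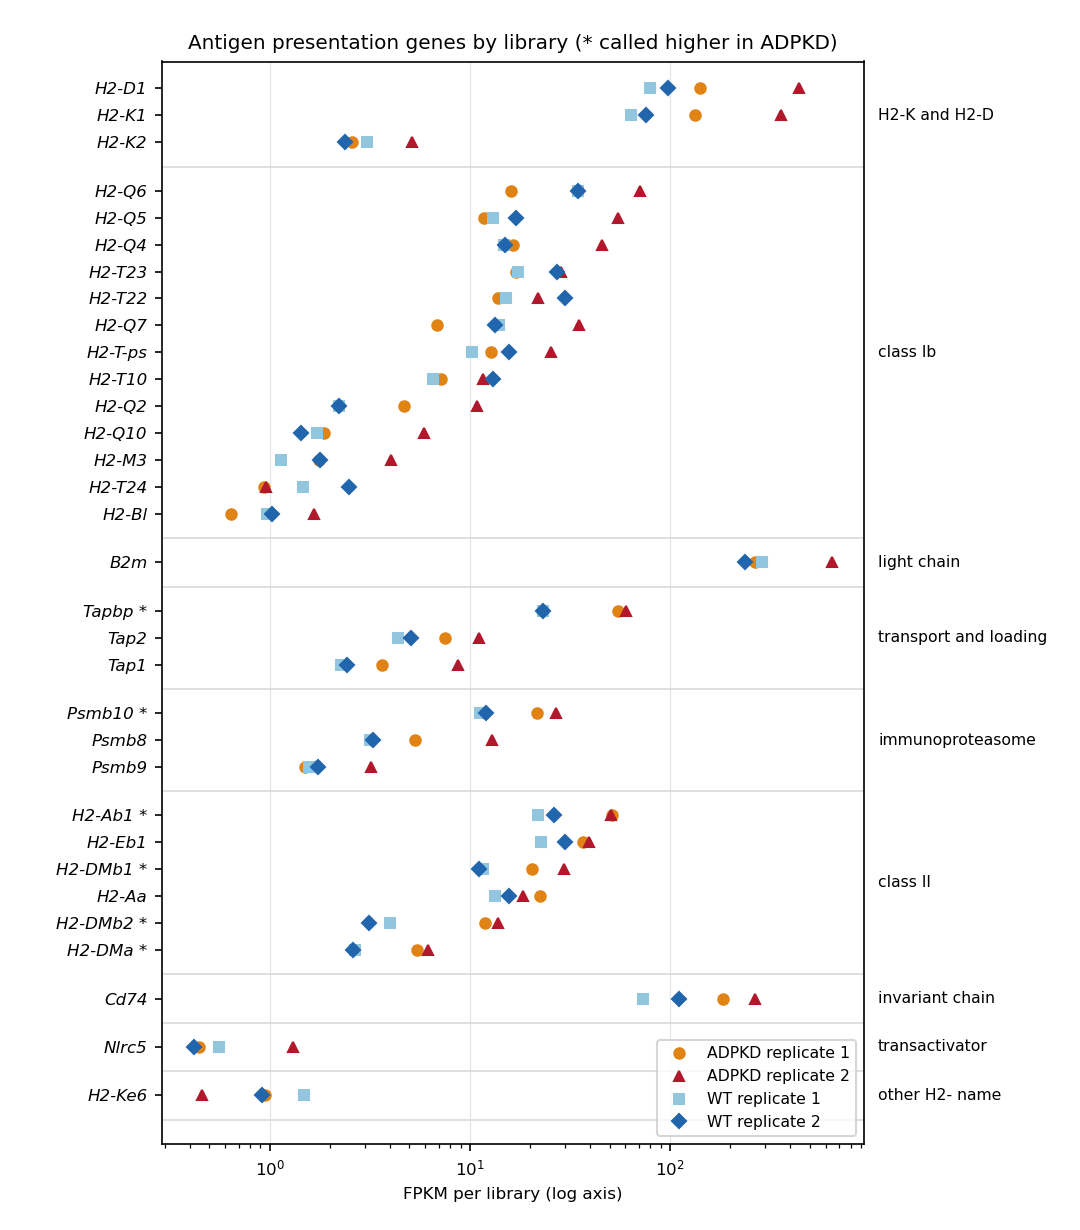
FPKM (log axis) of the 32 tested genes in each library, grouped by role, with circles and triangles for ADPKD replicates 1 and 2 and squares and diamonds for WT replicates 1 and 2; an asterisk marks the 6 genes called higher in ADPKD. The class II genes have their 2 ADPKD points close together and above WT, whereas H2-D1 has them at 141 and 441 FPKM, and H2-Q6 and H2-Q7 have 1 ADPKD point below and 1 above the WT points.

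Class II transcripts were higher in both ADPKD libraries by similar amounts, and the peptide exchange genes of the H2-DM family were called on the values as deposited. All 3 H2-DM genes rose (3 of 3 tested), though H2-DMa and H2-DMb1 were not called with quantile normalization, median-of-ratios scaling or voom. Also called was the beta chain gene H2-Ab1, while the alpha chain gene H2-Aa and the second beta chain gene H2-Eb1 lay above WT in both ADPKD libraries without passing the test. H2-DMb2 had 11.9 and 13.8 FPKM in ADPKD replicates 1 and 2, against 3.99 and 3.15 FPKM in WT replicates 1 and 2. This was the largest change among the called genes: means of 12.8 ± 1.32 FPKM in ADPKD and 3.57 ± 0.592 FPKM in WT (SD, n = 2 each), a difference of 1.6 on the log2 scale (SE 0.18, limma adjusted p = 0.0218). Its neighbour H2-DMb1, which encodes the other DM beta chain, had 20.6 and 29.6 FPKM in ADPKD kidney, against 11.6 and 11.1 FPKM in WT kidney (log2 fold change 1.06, SE 0.22, adjusted p = 0.0453). H2-DMa, the alpha chain gene of the same heterodimer, had 5.42 and 6.21 FPKM in ADPKD kidney, against 2.67 and 2.61 FPKM in WT kidney (0.90, SE 0.16, adjusted p = 0.0358). The groups did not overlap for any of the 3. Brd2 overlaps 10.4% of the exon length of H2-DMa, and the counting used no strand. Summed over both beta chains, the DM beta to DM alpha ratio was 5.99 and 6.99 in ADPKD and 5.85 and 5.45 in WT.

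H2-Ab1 (chr17:34257689-34269419, plus strand, GRCm38), the beta chain of the I-A molecule, had 51.4 and 50.5 FPKM in ADPKD kidney, against 21.8 and 26.4 FPKM in WT kidney. The ADPKD libraries were nearly equal and above both WT libraries, with a log2 fold change of 1.05 (SE 0.16, adjusted p = 0.0290). H2-Aa, the alpha chain of I-A, had 22.6 and 18.4 FPKM in ADPKD kidney, against 13.4 and 15.7 FPKM in WT kidney. Its groups did not overlap, but the log2 fold change of 0.46 (SE 0.18, adjusted p = 0.150) did not pass the test. The ratio of H2-Ab1 to H2-Aa was 2.28 and 2.74 in ADPKD and 1.63 and 1.68 in WT, so the 2 chains of I-A did not change by equal amounts in these FPKM. H2-Eb1, a beta chain of I-E, had 36.8 and 39.5 FPKM in ADPKD kidney, against 22.6 and 29.8 FPKM in WT kidney (log2 fold change 0.54, SE 0.19, adjusted p = 0.124). The invariant chain gene Cd74 had 185 and 266 FPKM in ADPKD kidney, against 73.7 and 111 FPKM in WT kidney. The groups did not overlap, and its log2 fold change of 1.29 (SE 0.30, adjusted p = 0.0569) just missed the threshold; over the scalings and voom the adjusted p lay on both sides of it, at 0.0414 with quantile normalization, 0.145 with median-of-ratios scaling (limma) and 0.103 with voom.

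The start regions of class II genes carry a conserved array of boxes bound by RFX, CREB and NF-Y, and class I promoters carry an NF-kB element called enhancer A beside a similar array. RefSeq (GRCm38.p6) promoter windows, from 250 bases before to 50 after the start of transcription, were matched by symbol for 32 of the 44 genes (the first window listed where a gene has several). They were searched on both strands for CCAAT (the Y box of NF-Y), CTAGNNACA (a core of the X box), GGGGATTCC (enhancer A), GAAANNGAA (resembling an interferon-stimulated response element) and TTCNNNGAA (resembling a gamma-activated site). CCAAT occurred in 26 of the 32 windows, beside 37.9% of the 27025 windows of all genes. GGGGATTCC occurred in 4 (H2-K1, H2-D1, H2-Q6 and H2-Q7), beside 0.259% of all. CTAGNNACA occurred in 2 (H2-Ob and H2-M2; 3.80% of all), GAAANNGAA in 3 (B2m, H2-T22 and H2-T23; 8.57% of all) and TTCNNNGAA in 3 (H2-DMb2, Psmb8 and H2-M3; 8.47% of all). Matches of different motifs overlapped in 0 cases. A match is a string of letters, not a measured binding site. Only exact letters were counted, so a box that differs from its pattern was not found. The window of H2-Eb1, for example, holds ctagcaact, which differs from CTAGNNACA in its last letter only. A window without a match is therefore not shown to lack the box.

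Shown first are 4 class II windows, 2 of genes that rose and 2 of genes that did not pass the test, with motif matches in capitals; they come from chr17:34144999-34145298 (plus strand, H2-DMb2), chr17:34152941-34153240 (plus, H2-DMb1), chr17:34287774-34288073 (minus, H2-Aa) and chr17:34305617-34305916 (plus, H2-Eb1).
H2-DMb2: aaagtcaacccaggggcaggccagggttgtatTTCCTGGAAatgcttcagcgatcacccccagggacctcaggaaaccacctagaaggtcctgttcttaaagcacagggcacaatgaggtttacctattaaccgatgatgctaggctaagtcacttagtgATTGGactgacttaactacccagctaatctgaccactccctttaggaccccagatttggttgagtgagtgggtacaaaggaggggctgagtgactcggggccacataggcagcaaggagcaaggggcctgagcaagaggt
H2-DMb1: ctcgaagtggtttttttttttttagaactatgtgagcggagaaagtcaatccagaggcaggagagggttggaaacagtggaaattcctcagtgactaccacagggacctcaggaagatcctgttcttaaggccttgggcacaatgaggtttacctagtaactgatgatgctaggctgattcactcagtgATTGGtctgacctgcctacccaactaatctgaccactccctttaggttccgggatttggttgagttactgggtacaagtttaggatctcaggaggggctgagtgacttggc
H2-Aa: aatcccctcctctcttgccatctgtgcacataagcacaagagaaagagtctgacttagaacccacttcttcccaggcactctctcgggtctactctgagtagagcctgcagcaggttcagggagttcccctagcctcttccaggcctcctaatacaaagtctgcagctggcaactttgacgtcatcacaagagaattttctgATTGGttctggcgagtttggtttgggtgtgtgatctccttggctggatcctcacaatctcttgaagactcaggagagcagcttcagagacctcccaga
H2-Eb1: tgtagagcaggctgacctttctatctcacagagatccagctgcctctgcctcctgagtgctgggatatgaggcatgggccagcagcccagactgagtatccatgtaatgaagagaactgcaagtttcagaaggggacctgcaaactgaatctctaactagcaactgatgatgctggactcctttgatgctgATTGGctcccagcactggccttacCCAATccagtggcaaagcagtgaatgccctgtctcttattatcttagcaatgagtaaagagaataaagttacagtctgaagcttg
Each of the 4 held the CCAAT box, which reads ATTGG where it lies on the other strand; the further capitals in H2-DMb2 mark TTCNNNGAA, 218 bases before the start. The CCAAT match began 90 bases before the start in H2-DMb2, 61 in H2-DMb1, 48 in H2-Aa, and 59 and 35 in H2-Eb1. The windows of H2-DMa and Psmb10, which were also called, held 0 matches of any of the motifs, and that of Tapbp held 2 of CCAAT. The H2-DMa window (chr17:34122582-34122881) lies inside the annotated gene, whose first base is 34119541. Likewise, the Tapbp window (chr17:33919228-33919527) lies inside a gene whose first base is 33915899. The H2-DMb2 window shown above also lies inside its annotated gene, whose first base is 34143307. Other starts of these genes were not searched. The box was thus present in some genes that passed the test and in some that did not, and absent from the window of others that passed.

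The classical class I genes were high in both groups and highest in ADPKD replicate 2, and neither passed the test. H2-D1 (chr17:35262730-35267499, plus strand), a heavy chain gene, had 141 and 441 FPKM in ADPKD replicates 1 and 2, against 79.3 and 98.2 FPKM in WT replicates 1 and 2. H2-K1 (chr17:33996017-34000347, minus strand), the other classical heavy chain gene, had 134 and 358 FPKM in ADPKD kidney, against 63.7 and 75.6 FPKM in WT kidney. For both genes the groups did not overlap, but the ADPKD libraries differed from each other by more than ADPKD replicate 1 differed from WT. The log2 fold change was 1.49 for H2-D1 (SE 0.57, limma adjusted p = 0.148) and 1.64 for H2-K1 (SE 0.49, adjusted p = 0.0957). Set against WT alone, ADPKD replicate 2 gave 2.35 for H2-K1 (adjusted p = 0.0486, called) and ADPKD replicate 1 gave 0.94 (adjusted p = 0.121). In each of these fits the lone ADPKD library is assumed to vary like the WT pair, and the one with replicate 1 alone called no gene of the whole table, so they describe the libraries and do not test the group. The transcribed pseudogene H2-K2 had 2.58 and 5.12 FPKM in ADPKD kidney, against 3.08 and 2.37 FPKM in WT kidney. Of the 16 class I and class Ib genes tested, 0 rose and 0 fell (2 higher and 0 lower at an unadjusted p under 0.05 by limma; voom called 0).

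The windows of the 2 classical class I genes, chr17:34000298-34000597 (minus strand, H2-K1) and chr17:35262844-35263143 (plus, H2-D1), are given because these genes had the largest log2 fold changes among class I and because both hold enhancer A.
H2-K1: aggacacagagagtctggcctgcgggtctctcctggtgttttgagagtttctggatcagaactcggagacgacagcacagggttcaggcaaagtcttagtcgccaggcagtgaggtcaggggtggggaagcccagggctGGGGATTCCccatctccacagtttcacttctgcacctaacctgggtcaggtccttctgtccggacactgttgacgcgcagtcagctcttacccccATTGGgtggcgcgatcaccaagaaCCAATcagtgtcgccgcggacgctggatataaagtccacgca
H2-D1: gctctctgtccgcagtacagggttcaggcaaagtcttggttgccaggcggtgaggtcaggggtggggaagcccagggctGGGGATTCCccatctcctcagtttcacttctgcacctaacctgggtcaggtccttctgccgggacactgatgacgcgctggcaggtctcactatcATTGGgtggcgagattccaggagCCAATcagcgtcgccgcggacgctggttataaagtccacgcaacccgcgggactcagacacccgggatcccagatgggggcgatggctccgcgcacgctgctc
Capitals mark GGGGATTCC, which began 111 bases before the start in H2-K1 and 171 in H2-D1, and the CCAAT boxes on either strand. The boxes lay 76 and 53 bases before the start in H2-D1, and 16 before and 8 after it in H2-K1, so enhancer A lay upstream of both boxes in each window. Positions are counted from the start listed for each gene. Enhancer A and the box nearer to it lay equally far apart in both genes, so their differing positions follow the listed start. The H2-D1 window lies inside the annotated gene, whose first base is 35262730.

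Class Ib genes, whose products are less variable relatives of H2-K and H2-D and include ligands of natural killer and other lymphocytes lay on both sides of WT, and none of them passed the test. Among the H2-Q genes, H2-Q6 had 16.1 and 70.8 FPKM in ADPKD replicates 1 and 2, against 34.7 and 34.9 FPKM in WT replicates 1 and 2. H2-Q7, whose product is the surface protein Qa-2, had 6.87 and 35.2 FPKM in ADPKD kidney, against 14.0 and 13.4 FPKM in WT kidney. In both genes the first ADPKD library lay below both WT libraries and the second above them, so a mean over the group describes neither library. The pseudogene H2-Q5 had 11.7 and 55.0 FPKM in ADPKD kidney, against 13.1 and 16.9 FPKM in WT kidney, again with the ADPKD libraries on either side of WT. H2-Q4, a class Ib heavy chain gene, had 16.5 and 45.7 FPKM in ADPKD kidney, against 14.8 and 15 FPKM in WT kidney (log2 fold change 0.85, SE 0.49, adjusted p = 0.288). H2-Q2 had 4.69 and 10.9 FPKM in ADPKD kidney, against 2.22 and 2.22 FPKM in WT kidney. Its log2 fold change of 1.35 (SE 0.38, adjusted p = 0.0849) did not pass the limma test; with ADPKD replicate 2 alone it was 1.88 and was called, the spread coming from the WT pair only.

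Of the 5 tested H2-T genes, 4 had overlapping groups. H2-T23 encodes Qa-1, a ligand of the NKG2 receptors, and had 17 and 28.7 FPKM in ADPKD kidney, against 17.5 and 27.4 FPKM in WT kidney. H2-T22 encodes a ligand of gamma delta T cells, as can the closely related H2-T10, which GENCODE M21 annotates as a polymorphic pseudogene. H2-T22 had 13.8 and 21.9 FPKM in ADPKD kidney, against 15.2 and 30.0 FPKM in WT kidney. The low replicate of each group was replicate 1, and the groups overlapped. H2-T10 had 7.18 and 11.7 FPKM in ADPKD kidney, against 6.59 and 13.0 FPKM in WT kidney. The pseudogene H2-T-ps had 12.7 and 25.5 FPKM in ADPKD kidney, against 10.3 and 15.7 FPKM in WT kidney. H2-T24 was the only tested gene with both ADPKD libraries below WT, at 0.938 and 0.965 FPKM against 1.47 and 2.49 FPKM in WT (log2 fold change -0.59, SE 0.24, adjusted p = 0.160). The remaining class Ib genes that were tested, H2-Q10, H2-M3 and H2-Bl, had adjusted p-values from 0.286 to 0.891; H2-M3, which presents formylated peptides, had 1.76 and 4.04 FPKM in ADPKD kidney, against 1.13 and 1.78 FPKM in WT kidney.

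Many of these genes are near copies, and reads with several alignments were counted at each place. Of the 24 class I and Ib genes, 14 shared more than 10% of their 50-base words with transcripts of other genes in GENCODE M21. The share was 53.5% for H2-T22, 50.4% for H2-T10, 36.4% for H2-Q5, 36.4% for H2-Q4, 35.0% for H2-Q6 and 26.5% for H2-Q7. It was lower for H2-D1 (12.8%) and H2-K1 (9.63%), 22.7% for H2-DMb1 and 25.9% for H2-DMb2, which resemble each other, and 0% for H2-Ab1, H2-Eb1, B2m, Cd74 and Psmb10. The division of reads within the H2-Q genes, between H2-T22 and H2-T10 and between the DM beta genes is therefore uncertain.

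The light chain and the supply of peptides showed both patterns. B2m, the light chain shared by class I molecules, had 266 and 646 FPKM in ADPKD replicates 1 and 2, against 288 and 237 FPKM in WT replicates 1 and 2. ADPKD replicate 1 lay between the WT libraries and replicate 2 far above them (log2 fold change 0.67, SE 0.46, adjusted p = 0.365). The summed level of H2-K1 and H2-D1 per unit of B2m was 1.03 and 1.24 in ADPKD and 0.497 and 0.732 in WT. Tapbp, which encodes tapasin, had 54.8 and 60.1 FPKM in ADPKD kidney, against 23.3 and 23.3 FPKM in WT kidney. It rose to 57.5 ± 3.78 FPKM in ADPKD kidney, against 23.3 ± 0.0482 FPKM in WT kidney (log2 fold change 1.26, SE 0.14, adjusted p = 0.0217); Gm19412 and Zbtb22 overlap 29.0% of its exon length, and the counting used no strand. Tap1, a subunit of the peptide transporter, had 3.66 and 8.69 FPKM in ADPKD kidney, against 2.26 and 2.43 FPKM in WT kidney (1.01, SE 0.38, adjusted p = 0.147). Tap2, its partner, had 7.51 and 11.1 FPKM in ADPKD kidney, against 4.37 and 5.08 FPKM in WT kidney (0.83, SE 0.23, adjusted p = 0.0817). The groups did not overlap for either transporter gene.

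The immunoproteasome genes encode catalytic subunits that replace those of the ordinary proteasome. Psmb10 had 21.6 and 27.0 FPKM in ADPKD kidney, against 11.3 and 12.1 FPKM in WT kidney, and rose (log2 fold change 0.99, SE 0.17, limma adjusted p = 0.0348). Psmb8 had 5.32 and 12.9 FPKM in ADPKD kidney, against 3.19 and 3.30 FPKM in WT kidney (1.14, SE 0.40, adjusted p = 0.129). With ADPKD replicate 2 alone the log2 fold change of Psmb8 was 1.71 and was called (adjusted p = 0.0499), again with the spread of the WT pair only. Psmb9, which shares its start region with Tap1, had 1.5 and 3.22 FPKM in ADPKD kidney, against 1.58 and 1.75 FPKM in WT kidney, and its groups overlapped (0.29, SE 0.30, adjusted p = 0.541). Of the ordinary subunits that these replace, Psmb5, Psmb6 and Psmb7, 0 rose and 0 fell by limma (0 at an unadjusted p under 0.05 in the higher direction and 1 in the lower); voom called 0 higher and 1 lower. Within a library the ratio of Psmb10 to Psmb7 was 1.49 and 2.01 in ADPKD and 0.613 and 0.575 in WT. That of Psmb8 to Psmb5 was 0.0441 and 0.119 in ADPKD and 0.0272 and 0.0248 in WT. The ratio of Psmb9 to Psmb6 was 0.0238 and 0.0534 in ADPKD and 0.0214 and 0.0225 in WT. The ratios were not tested. An exact permutation test, which was not run, cannot reach a two-sided p under 0.333 with 2 libraries in each group.

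**Figure D2:**
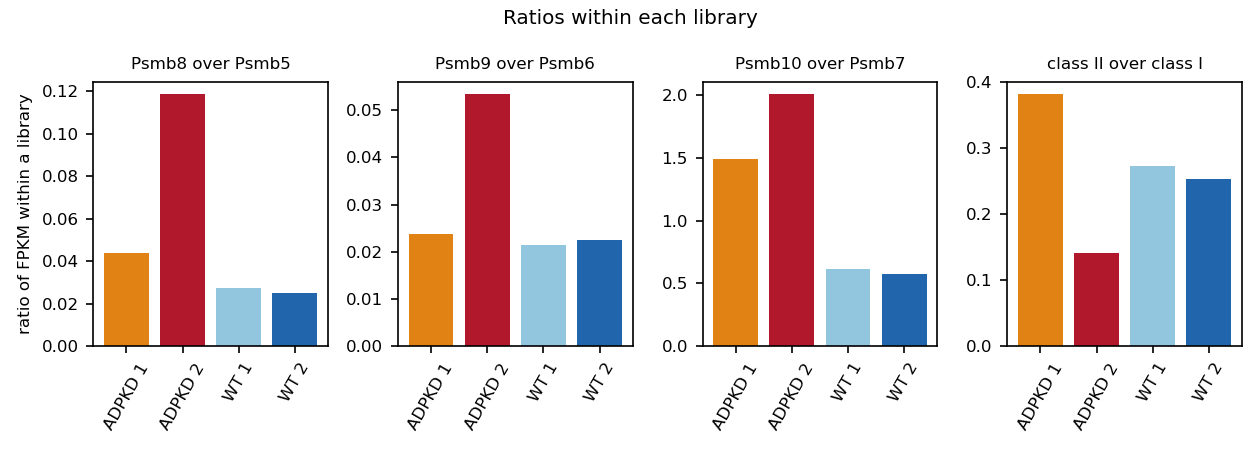
Ratios of FPKM within each library (bars, linear axes from 0) for the 3 immunoproteasome subunits over the ordinary subunits they replace, and for summed class II over summed class I genes, with ADPKD left of WT. The Psmb10 to Psmb7 ratio is above WT in both ADPKD libraries (1.49 and 2.01 against 0.613 and 0.575), whereas the class II to class I ratio is highest in ADPKD replicate 1 (0.382) and lowest in ADPKD replicate 2 (0.141).

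The 2 ADPKD libraries differed more in class I than in class II. Each of the 16 tested class I and Ib genes was higher in ADPKD replicate 2 than in replicate 1, with ratios from 1.03 (H2-T24) to 5.12 (H2-Q7) and a median of 2.46. For the 6 tested class II genes the ratio lay between 0.817 (H2-Aa) and 1.44 (H2-DMb1), with a median of 1.11. Over all tested genes the median was 0.891, 33.9% of genes were higher in replicate 2, and 5.35% were at least 2-fold higher, against 16 of the 32 genes described here. Set against the WT mean, the median class I or Ib gene stood at -0.17 on the log2(FPKM + 1) scale in ADPKD replicate 1 and at 1.03 in replicate 2, the median class II gene at 0.81 and 1.01, and the median of all genes at 0.26 and 0.10. Summed class I and Ib levels were 390 and 1123 FPKM in ADPKD and 280 and 352 FPKM in WT, and summed class II levels were 149 and 158 FPKM in ADPKD and 76.6 and 89.2 FPKM in WT. The ratio of summed class II to class I was 0.382 and 0.141 in ADPKD and 0.274 and 0.254 in WT. What sets ADPKD replicate 2 apart was not tested.

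**Figure D3:**
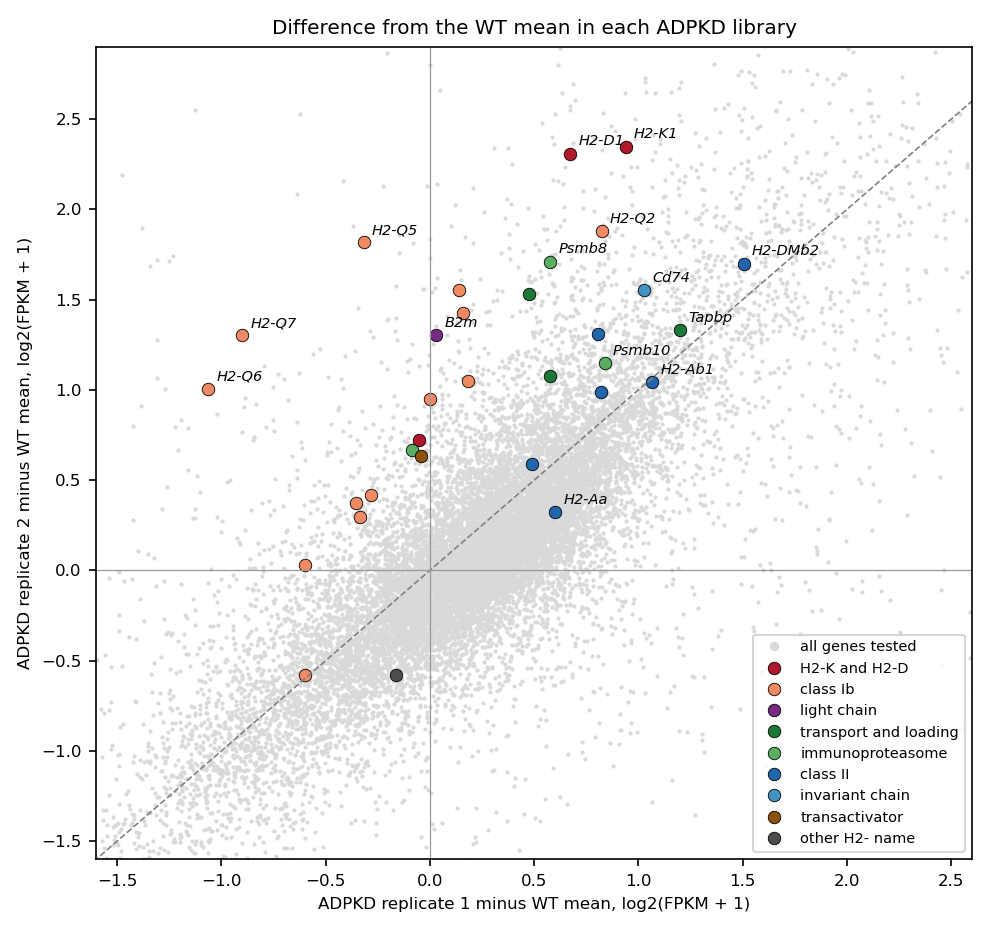
Difference from the WT mean on the log2(FPKM + 1) scale in ADPKD replicate 1 (horizontal) and ADPKD replicate 2 (vertical), for the 32 genes coloured by role and for all tested genes in grey; the dashed line marks equality, and 4.73% of all genes lie outside the axes. Class II genes lie near the line, whereas class I and Ib genes lie above it, H2-D1 at 0.67 and 2.31 and H2-Q6 at -1.06 and 1.0.

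Transcripts of the coactivators were scarce. Ciita had 0.458 and 0.384 FPKM (81 and 73 reads) in ADPKD kidney, against 0.280 and 0.309 FPKM (49 and 53 reads) in WT kidney. The groups did not overlap, but the mean was under the filter of 0.5 FPKM and Ciita was not tested. Nlrc5 had 0.444 and 1.31 FPKM in ADPKD kidney, against 0.557 and 0.419 FPKM in WT kidney, so its high library was also ADPKD replicate 2 (log2 fold change 0.30, SE 0.29, adjusted p = 0.513). Of 7 genes for the factors that bind the same promoters (Rfx5, Rfxank, Rfxap, Nfya, Nfyb, Nfyc and Creb1) 0 rose and 0 fell by limma (1 higher and 0 lower at an unadjusted p under 0.05; voom called 0). The smallest adjusted p was that of Rfx5, with 2.36 ± 0.0139 FPKM in ADPKD and 1.27 ± 0.122 FPKM in WT (adjusted p = 0.0922), followed by Nfyc (log2 fold change -0.54, adjusted p = 0.170).

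Of 11 genes of interferon gamma signalling 10 were tested, 3 rose and 0 fell by limma (8 higher and 0 lower at an unadjusted p under 0.05; voom called 2 higher and 0 lower), with a median log2 fold change of 0.69. The receptor genes rose: Ifngr1 to 46.9 ± 2.0 FPKM in ADPKD, against 11.4 ± 0.117 FPKM in WT (log2 fold change 1.95, SE 0.14, adjusted p = 0.0164), and Ifngr2 to 21.0 ± 1.94 FPKM in ADPKD, against 4.65 ± 0.230 FPKM in WT (1.96, SE 0.15, adjusted p = 0.0165). The transcription factor gene Irf1, a direct target of the pathway, rose by 1.55 on the same scale (SE 0.31, adjusted p = 0.0434), with 8.17 and 15.2 FPKM in ADPKD, against 3.26 and 3.05 FPKM in WT. Ifng itself stood at 0.0416 and 0 FPKM in ADPKD and 0.0420 and 0.0858 FPKM in WT, near the level of 1 read.

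Some genes that act beside these also rose. Of 6 class II processing genes measured here 2 rose and 0 fell by limma (5 higher and 0 lower at an unadjusted p under 0.05; voom called 2 higher and 0 lower): the cathepsin genes Ctsd (612 ± 95.2 FPKM in ADPKD and 152 ± 2.22 FPKM in WT, adjusted p = 0.0183) and Ctss, whose protease cuts the invariant chain (93.1 ± 55.8 FPKM in ADPKD and 5.96 ± 1.23 FPKM in WT, adjusted p = 0.0245). Ctss had 53.6 and 133 FPKM in the ADPKD libraries, and its log2 fold change of 3.63 (SE 0.46) exceeded that of every tested MHC gene. Of 11 further genes of class I peptide supply and loading 2 rose and 0 fell by limma (3 higher and 1 lower at an unadjusted p under 0.05; voom called 0 higher and 1 lower): Tapbpl, a peptide editor related to tapasin (0.80, SE 0.14, adjusted p = 0.0367), and Erap1, which trims peptides in the endoplasmic reticulum (0.73, SE 0.15, adjusted p = 0.0458). The gene lower at an unadjusted limma p was Calr. It had 240 and 216 FPKM in ADPKD, against 351 and 313 FPKM in WT (-0.54, SE 0.17, limma adjusted p = 0.103). Of 6 tested MHC class I-like genes named outside H2- 0 rose and 0 fell by limma (3 higher and 0 lower at an unadjusted p under 0.05; voom called 0), with the smallest adjusted p for the iron regulator gene Hfe (0.78, adjusted p = 0.0688) and Procr (0.74, adjusted p = 0.0690). Of 4 tested costimulation and checkpoint genes 0 rose and 0 fell by limma (2 higher and 0 lower at an unadjusted p under 0.05; voom called 0), with Cd86 at 1.21 and 2.07 FPKM in ADPKD and 0.342 and 0.546 FPKM in WT (0.85, SE 0.24, adjusted p = 0.0859) and Icosl next (0.66, adjusted p = 0.122).

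Markers of the cells that carry class II molecules were not equally high in ADPKD kidney. Of 12 macrophage and monocyte markers 8 rose and 0 fell by limma (10 higher and 1 lower at an unadjusted p under 0.05; voom called 2 higher and 0 lower), with a median log2 fold change of 2.32, and 0 of the 12 were at 0 in any library. Their summed level was 320 and 919 FPKM in ADPKD replicates 1 and 2, against 62.7 and 102 FPKM in WT replicates 1 and 2, and Cx3cr1 had the smallest adjusted p (1.69, SE 0.16, adjusted p = 0.0191). Of 4 pan-leukocyte markers 3 rose, led by Cd53 (2.45, SE 0.33, adjusted p = 0.0259), with sums of 36.3 and 58.7 FPKM in ADPKD and 9.17 and 9.29 FPKM in WT. Summed class II per unit of pan-leukocyte marker was 4.10 and 2.69 in ADPKD and 8.36 and 9.61 in WT, and per unit of macrophage and monocyte marker 0.466 and 0.172 in ADPKD and 1.22 and 0.878 in WT. Summed class II was thus higher in both ADPKD libraries, but lower relative to the sum of either marker list. The complement genes C1qa, C1qb and C1qc made up 79.1% and 85.6% of the macrophage and monocyte sum in ADPKD and 55.3% and 64.4% in WT. By divisors chosen after the values were seen, class II per unit of the list without them was 2.22 and 1.20 in ADPKD and 2.73 and 2.47 in WT, and per unit of the macrophage receptor gene Csf1r 9.51 and 5.69 in ADPKD and 9.36 and 5.33 in WT. The last pair of ranges overlapped, so the lower ratio depends on which marker is the divisor.

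Of 10 dendritic cell markers 3 were tested and 0 rose or fell by limma (0 at an unadjusted p under 0.05 in either direction; voom called 0), with sums of 6.41 and 5.55 FPKM in ADPKD and 4.49 and 4.17 FPKM in WT; Itgax had the smallest adjusted p (0.54, adjusted p = 0.178). B cell markers summed to 1.51 and 3.39 FPKM in ADPKD and 1.36 and 0.976 FPKM in WT, with 1 of 6 tested by limma, Cd79b (adjusted p = 0.181), and Ms4a1 at 0 in ADPKD replicate 2. T and NK cell markers summed to 1.65 and 2.38 FPKM in ADPKD and 3.09 and 1.55 FPKM in WT, with 1 of 8 tested by limma, Cd4 (adjusted p = 0.156), and Ncr1 at 0 in both ADPKD libraries. Of 7 endothelial markers 2 fell and 0 rose by limma (5 lower and 0 higher at an unadjusted p under 0.05; voom called 3 lower and 0 higher): Tek (log2 fold change -1.35, SE 0.15, adjusted p = 0.0218) and Tie1 (-1.11, SE 0.20, adjusted p = 0.0372), with sums of 47.7 and 104 FPKM in ADPKD and 149 and 183 FPKM in WT. Of the 10 kidney epithelial markers 5 fell and 0 rose by limma (6 lower and 0 higher at an unadjusted p under 0.05; voom called 5 lower and 0 higher), with Cubn at the smallest adjusted p (-1.15, SE 0.14, adjusted p = 0.0228). The part of any of these cell types in the MHC values was not tested.

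**Figure D4:**
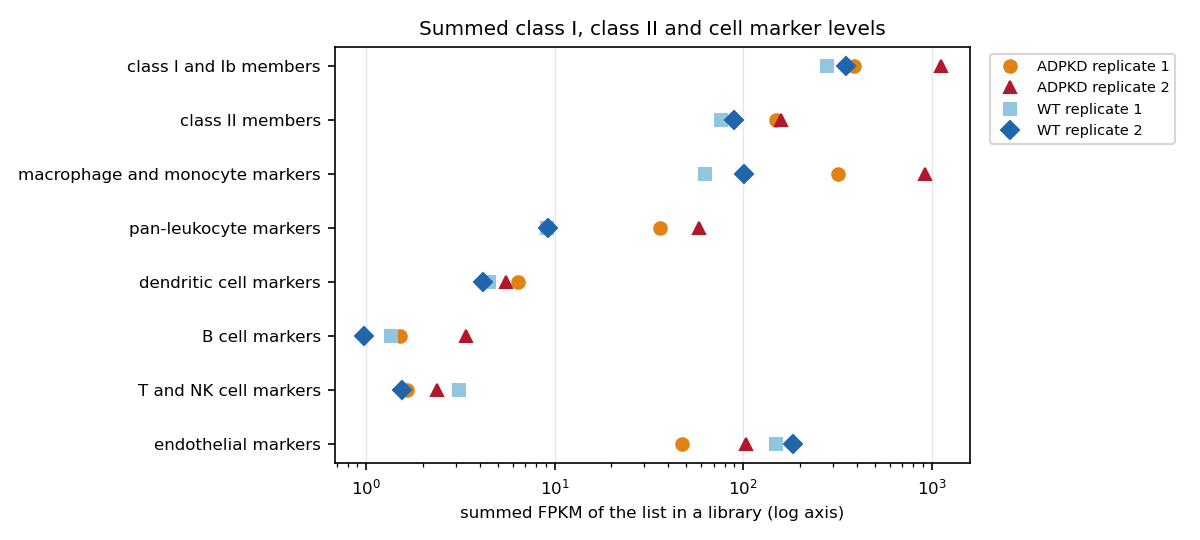
Summed FPKM (log axis) in each library of the class I and Ib genes, the class II genes and the marker lists of 6 cell classes. Summed class II is 149 and 158 FPKM in ADPKD and 76.6 and 89.2 FPKM in WT, whereas macrophage and monocyte markers stand at 320 and 919 FPKM in ADPKD and 62.7 and 102 FPKM in WT.

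The other 12 genes were under the filter, with 0 to 81 reads per library, and were not tested. Apart from Ciita, the highest was H2-Q1, a class Ib gene with 2 and 55 reads in ADPKD replicates 1 and 2, against 0 and 3 reads in WT replicates 1 and 2, so that a single library held nearly all of them. H2-Oa and H2-Ob encode the chains of H2-O, which inhibits H2-DM and is made mainly by B cells. H2-Ob had 3 and 4 reads in ADPKD kidney, against 20 and 15 reads in WT kidney. H2-Oa had 6 and 2 reads in ADPKD kidney, against 8 and 7 reads in WT kidney. Both inhibitor genes thus had fewer reads in each ADPKD library, with no test. H2-Eb2, H2-M1, H2-M2, H2-M5, H2-M6-ps, H2-M10.3, H2-M10.5 and H2-T3 had at most 10 reads in any library. Among the tested genes, H2-Ke6 met the rule by its name alone, since it encodes a hydroxysteroid dehydrogenase; it had 0.951 and 0.458 FPKM in ADPKD kidney, against 1.49 and 0.913 FPKM in WT kidney, with 86.4% of its exon length under another gene.

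In the genome 39 of the 44 genes lie on chromosome 17 between 33915899 and 37483552 (GRCm38, as in the deposited table), all 34 H2- genes among them. The H2-DM genes and H2-Ab1, which rose, lie between 34119541 and 34269419 in the class II region. Between these bases also lie the untested H2-Ob and, among the tested genes that did not pass, Psmb8, Psmb9, Tap1 and Tap2. The class II chain genes H2-Aa (34282744 to 34287823) and H2-Eb1 (34305867 to 34316674), which did not pass either, lie beyond H2-Ab1 in the same region. Tapbp lies at the edge of the region (33915899 to 33929292). Psmb10 lies on chromosome 8 (105935735 to 105938444), B2m on chromosome 2, Ciita on chromosome 16, Nlrc5 on chromosome 8 and Cd74 on chromosome 18.

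The log2 fold changes of the called genes other than H2-DMa, which was not followed here, stayed positive in every setting, while their adjusted p crossed 0.05. When a library was left out they lay between 1.20 and 1.33 for Tapbp, 1.47 and 1.73 for H2-DMb2, 0.92 and 1.19 for H2-Ab1, 0.81 and 1.31 for H2-DMb1, and 0.84 and 1.15 for Psmb10. With median-of-ratios scaling they were lower than as deposited, at 1.03, 1.39, 0.818, 0.83 and 0.763 in the same order. With 1 library against 2 few calls can be made: without ADPKD replicate 2 and without WT replicate 2, 0 of the 32 genes were called (10 and 11 higher at an unadjusted p under 0.05 by limma), without WT replicate 1 only H2-DMb2, and without ADPKD replicate 1 none of the 6 but H2-K1, H2-Q2 and Psmb8. Over the 11 other settings H2-DMb2 was called in 7 (adjusted p from 0.0175 to 0.0867), Tapbp in 6 (0.0190 to 0.0841), H2-Ab1 in 5 (0.0276 to 0.107), Psmb10 in 3 (0.0307 to 0.120), H2-DMb1 in 2 (0.0403 to 0.154) and H2-DMa in 2 (0.0329 to 0.183).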

How the data were processed

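RNA-seq libraries of whole kidney were grouped by the labels into ADPKD (2 libraries) and WT (2 libraries). The authors deposited FPKM values per gene; per the file headers of a companion table, reads were counted with featureCounts 1.6.0 over the exons of Ensembl release 98 (GRCm38) by gene name, with multi-mapping reads counted and no strand or paired-end option. Bowtie2, DESeq2 and mm10 are named in the submitters' processing notes, which give them no role. Rows whose names had become dates (25) were left out, and 16 columns of values that matched no sample's labels were not used. FPKM times exon length gave whole reads within 0.01 read for 100% of values, so 1 read on 1 kb was worth 0.0501 to 0.0556 FPKM, and a count of 0 allows up to 3 reads, counting error only.

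Log2(FPKM + 1) of the 17001 genes with a mean of at least 0.5 FPKM was tested with limma 3.58.1 (trend, R 4.3.3), with Benjamini-Hochberg adjustment over all of them and calls at an adjusted p below 0.05. A fold change on this scale understates the change of low genes. The test was checked on simulated data, with larger log2 changes than those of the called genes described here and the same noise for every gene. That check therefore does not cover changes of their size. The genes and lists were chosen with earlier results of these data known. Every gene outside H2- and every H2- gene with a mean of at least 5 FPKM is given per library; other lists are given by the 2 genes with the smallest adjusted p (1 for markers). Further genes named singly were chosen after their values were seen. Alternatives were a pseudocount of 0.1, no filter, quantile and median-of-ratios scaling, a robust prior, voom on recovered reads, a replicate block and leaving out each library. Promoters came from RefSeq (GRCm38.p6), and positions and shared 50-base words from GENCODE M21 transcripts. Some genes of the lists are not reported here.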

Additional observations from a re-analysis of the deposited data

How the results depend on the processing

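With 2 libraries in each group the calls are sensitive to the settings. The number of the 32 genes called higher (6) was 0 with no filter (limma; 13 at an unadjusted p under 0.05), 2 with median-of-ratios scaling, 3 with voom and 0 to 3 when a library was left out. For class II (4) it was 0 with no filter, 2 with quantile normalization, 1 with median-of-ratios scaling, 2 with voom, 2 with the replicate block and 0 to 1 when a library was left out, and for class I (0) it was 0 to 2. Over all genes, 1604 higher became 1 with no filter, 999 with quantile normalization, 817 with median-of-ratios scaling and 0 to 435 when a library was left out; 813 lower became 0 with no filter, 1243 with voom and 0 to 250. The median log2 fold change of the 32 genes lay between 0.181 and 1.06 when a library was left out. That of all genes was 0.0365 with no filter, -0.0125 with quantile normalization, -0.000134 with median-of-ratios scaling, 0.0174 with voom and 0.0963 to 0.252 when a library was left out. Among the 24 tested genes given per library by rule, signs turned for 8 that were not called; of the other tested genes, H2-K2 (-0.05) and H2-Bl (-0.28) also turned without ADPKD replicate 2, and Nlrc5 fell under the filter there. With a lone library in a group, that library is assumed to vary like the other group. In the order quantile, median-of-ratios and voom, H2-T23 gave -0.144, -0.222 and -0.211, and H2-Q7 gave -0.0155, -0.0197 and -0.0363. Leaving out a library gave -1.06 to 1.0 for H2-Q6, -0.318 to 1.82 for H2-Q5, -0.354 to 0.372 for H2-T23, -0.754 to 0.186 for H2-T22, -0.90 to 1.30 for H2-Q7, -1.64e-05 to 0.949 for H2-T-ps, -0.463 to 0.424 for H2-T10 and -0.0882 to 0.666 for Psmb9. Apart from these settings' own construction, the cause was not tested. Replicate numbers are shared between the groups without a stated pairing (correlation of deviations 0.188); with them as a replicate block 5 of the 32 genes were called, Cd74 (adjusted p = 0.0411) replacing H2-DMa and H2-DMb1. The planned edgeR alternative was not run, since the deposited unit is FPKM. Genes under about 10 reads per library are limited by depth.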
